A study of Mus musculus with 1 sample.

Results

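The genes of the cytosolic ribosome's proteins were followed across the cell types of the fetal mouse testis. A gene was a member when its symbol was Rps or Rpl with a number and an optional short suffix, Rplp with a number, or Rpsa, and pseudogene-labelled symbols were left out. This gave 85 of the 22631 features of the count matrix, of which 84 had at least 100 UMIs (unique molecular identifiers, each standing for 1 captured mRNA molecule) over all kept cells and 1, *Rpl3l*, had 39. The kinases of the Rps6k family and *Rps19bp1* share the prefix but are not ribosomal proteins, and were not members.

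The data are 1 droplet library (3 prime chemistry) of fresh testicular cells at E14.5, pooled from 12 controls, labelled WT. The study counts 12 control testes, and the number of fetuses is not known. The methods name an earlier day as well and describe the controls as *Nr5a1* L2/L2 fetuses, whose *Nr5a1* alleles are flanked by loxP sites and which lack the AMH-driven Cre of the mutants, on a mixed C57BL/6 and 129/SvPass background. The mutant library was not used here. After filtering, 3826 of 5421 barcodes with 54818371 UMIs remained, with a median of 12090.5 UMIs per cell (range 2299 to 53657), and they formed 16 clusters built without the members among the clustering genes. With 1 library there was no replicate and no test was possible, so values carry 95% intervals (exact Poisson for levels, exact binomial for shares) that cover counting error only.

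Ribosomal proteins are the protein subunits that assemble with ribosomal RNA into the small (Rps) and large (Rpl) ribosomal subunits, and Rplp0, Rplp1 and Rplp2 form the stalk of the large subunit that recruits translation factors. Their mRNAs are among the most abundant in growing cells, and many begin with a run of pyrimidines, the terminal oligopyrimidine (TOP) motif, through which their translation responds to growth signals. Some members have a paralogue, and some of these, such as *Rpl39l* and *Rpl10l*, are autosomal copies of genes on chromosome X that are known from the male germ line.

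Cell classes were named from marker genes. Germ-like cells (252) had each of the 10 listed germ markers, among them *Ddx4*, *Dazl* and *Pou5f1*, in at least 25% of cells. Sertoli-like cells (852) were led by *Amh* and *Ptgds*, and the 316 Leydig-like cells comprised 187 cells led by *Nppc* and *Vsnl1* (cluster 6) and 129 led by *Cyp11a1*, *Cyp17a1* and *Star* (cluster 9). Cluster 6 had all 8 Leydig markers in at least 25% of cells, but none of them was among its 10 leading genes. Interstitial-like (1107), peritubular myoid-like (528), perivascular-like (152) and coelomic epithelium-like (144) cells made up the other classes of at least 100 cells. The interstitial-like name was the weakest, as the 2 clusters under it had 6 of 7 markers but mean log2 marker ratios of 1.08 and 1.30, close to the limit of 1 for a name, and none of these markers led them. Clusters 5, 10, 11 and 15 stayed unnamed. Cluster 5 was under the limit on the ratio (0.95) and cluster 15 had too few markers (2). Cluster 10 passed for interstitial (1.23), but its 10 leading genes held an endothelial marker, *Emcn*, and no interstitial one. Cluster 11 passed for Sertoli (1.36), but its median depth of 3148.5 UMIs was far below the 12090.5 UMIs of all kept cells, and no Sertoli marker was among its 10 leading genes. Further, erythroid-like (42), immune-like (35) and endothelial-like (21) cells were too few for the class comparisons.

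The sequences of the pairs with the most uneven use show how far the copies can be told apart. *Rpl39* lies on chromosome X (GRCm38 chrX:37082520-37085402, minus strand) and its paralogue *Rpl39l* on chromosome 16 (chr16:10170226-10174911, plus strand). Their coding sequences, taken from the GENCODE transcripts of this build, are both 156 bases long and 85.3% identical, and capitals mark the 23 bases that differ.
Rpl39: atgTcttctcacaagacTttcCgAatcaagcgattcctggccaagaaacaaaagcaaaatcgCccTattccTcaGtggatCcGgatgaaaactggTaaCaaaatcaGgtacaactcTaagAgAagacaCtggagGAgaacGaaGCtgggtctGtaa
Rpl39l: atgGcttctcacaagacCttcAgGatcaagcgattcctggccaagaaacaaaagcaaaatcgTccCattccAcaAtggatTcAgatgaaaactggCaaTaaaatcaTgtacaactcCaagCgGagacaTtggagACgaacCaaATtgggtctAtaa
These differences fall in 21 of 52 codons, of which 3 change the amino acid. No 90-base stretch in the last 400 bases of either transcript occurred in another gene of the matrix.

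*Rpl10* (chrX:74270812-74273135, plus strand) and *Rpl10l* (chr12:66283379-66284401, minus strand) each encode 645 bases that are 84.8% identical, with 98 differing bases and 3 codons that change the amino acid. The last 120 coding bases, nearest to the sequenced 3 prime end, are shown with the 16 differing bases in capitals.
Rpl10: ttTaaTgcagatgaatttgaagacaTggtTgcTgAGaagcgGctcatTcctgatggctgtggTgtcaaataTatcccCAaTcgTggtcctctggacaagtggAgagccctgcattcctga
Rpl10l: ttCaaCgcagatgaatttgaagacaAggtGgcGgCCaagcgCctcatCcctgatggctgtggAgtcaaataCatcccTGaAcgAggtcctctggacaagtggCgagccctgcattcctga
All 90-base stretches at the end of *Rpl10* also occurred in the pseudogene-labelled feature *Rpl10-ps3*, while those of *Rpl10l* occurred in no other annotated transcript. A read wholly inside the shared end of *Rpl10* matches both features by its letters. Both were counted all the same, with 104818 UMIs for *Rpl10* and 4197 for *Rpl10-ps3*, and how such reads were assigned was not tested. *Rpl9* shared all of its end with *Rpl9-ps6*, and *Rps27* and *Rps27rt* have the same coding sequence. In all, 11 of 85 members shared such a stretch with another gene of the matrix and 59 with any other annotated transcript, *Rps27a* for example over 89.1% of its end. How many reads were lost to such copies was not tested.

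Of the 85 members, 65 had an entry among the RefSeq promoter sequences (GRCm38.p6), which run from 250 bases before to 50 after a gene's start. A C at the start followed by at least 4 pyrimidines, the letters of a TOP motif, stood there in 14 members (21.5%) against 3.01% of all 27025 genes. With a start of the run anywhere from 10 bases before to 10 bases after the gene's start, as in *Rpl39* and *Rpl39l*, it was 40 members (61.5%) against 34.4% of all genes. The letters CCGGAAG on either strand, the core recognised by ETS factors, were present in 26 members (40.0%) against 9.93% of all genes, and AAGATGGC, recognised by YY1, in 6 (9.23%) against 3.19%. Motifs were searched independently, so a base can count for more than 1 of them. Starts of 3 members are shown from 40 bases before to 30 bases after the start. Capitals mark a pyrimidine run, counted from the C nearest to the start that is followed by at least 4 pyrimidines. Pyrimidines just before that C, as in *Rps27* and *Rpl39l*, are not marked. *Rps27* (chr3:90213619-90213688, minus strand) has a marked run that begins at the start itself. *Rpl39* (chrX:37085193-37085262, minus strand) has one that begins upstream and ends on the start base, and the run of *Rpl39l* (chr16:10170188-10170257, plus strand) ends just upstream of the start.
Rps27: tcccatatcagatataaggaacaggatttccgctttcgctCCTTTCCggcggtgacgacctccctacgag
Rpl39: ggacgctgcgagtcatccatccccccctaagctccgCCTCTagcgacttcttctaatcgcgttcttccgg
Rpl39l: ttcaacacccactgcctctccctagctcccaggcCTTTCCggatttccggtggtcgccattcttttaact
Such matches describe letters only and were not linked to the levels below.

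Members made up 23.9% of all UMIs of the kept cells, and the share differed between cell classes. Germ-like cells had the highest share, 29.5% (interval 29.5 to 29.6), and Sertoli-like cells (18.9%, 18.8 to 18.9) and Leydig-like cells (19.3%, 19.2 to 19.3) the lowest among the 7 classes compared. The other 4 classes lay close together, with 26.5% in interstitial-like, 25.8% in coelomic epithelium-like, 25.7% in peritubular myoid-like and 25.2% in perivascular-like cells. Erythroid-like cells numbered 42 after the outlier filter and 285 without it. In the 42, 4 of 7 interstitial and 3 of 12 Sertoli markers were seen in at least 25% of cells, and single cells ranged from 1.33% to 33.0%. Their summed share was 16.2%, where hemoglobin genes took 36.8% of the UMIs. It was 27.2% once mitochondrial and hemoglobin genes were left out of the total. The same change of total gave 32.5% in germ-like, 28.3% in interstitial-like, 21.7% in Leydig-like and 21.4% in Sertoli-like cells, and the order of these 4 classes was the same. Leydig-like cells lay below Sertoli-like cells under 4 other settings, for example with 17.8% and 19.1% when doublets were kept. The Leydig-like name then covered 239 cells in place of 316, and its number of cells differed from 316 in each of these settings. Mitochondrial genes took 11.7% of UMIs in Sertoli-like, 10.5% in Leydig-like, 9.18% in germ-like and 6.29% in interstitial-like cells.

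**Figure D1:**
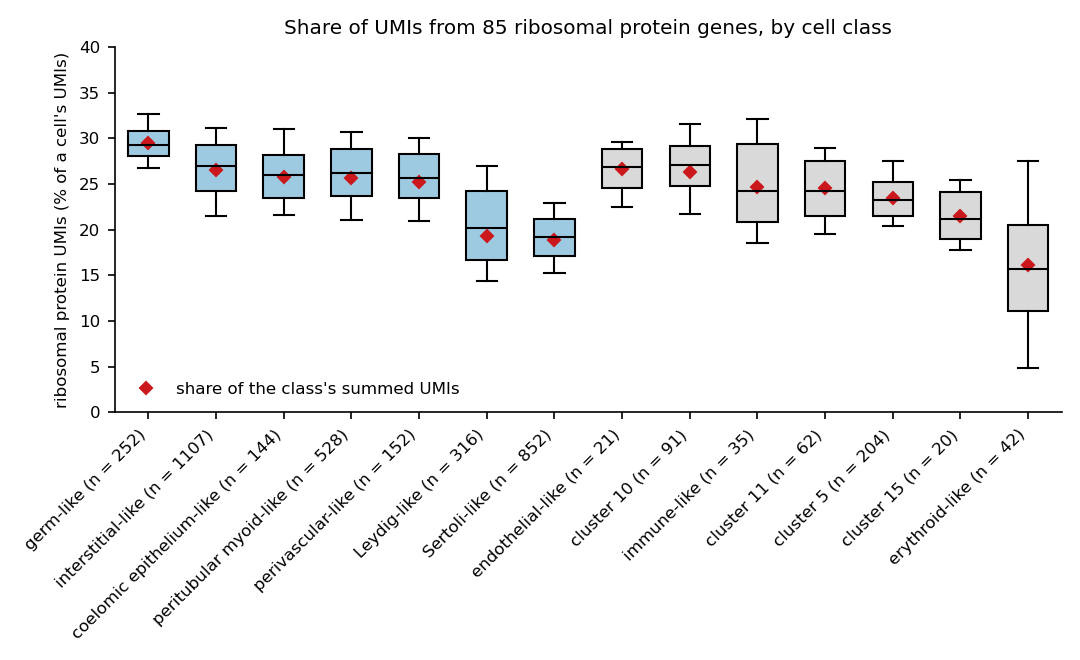
Share of each cell's UMIs that came from the 85 ribosomal protein genes, in percent, by cell class. Boxes span the quartiles with the median as a line, whiskers reach to the 10th and 90th percentiles of cells, and red diamonds the share of the class's summed UMIs; blue boxes are the named classes of at least 100 cells. Germ-like cells sit highest at 29.5% and Sertoli-like and Leydig-like cells lowest among the blue boxes at 18.9% and 19.3%.

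Cells of 1 class differed from each other by more than counting allows. The standard deviation over germ-like cells was 2.80 points, against 0.280 points from counting alone, and the 10th and 90th percentiles of cells were 26.7% and 32.7%. In Sertoli-like cells these were 15.2% and 22.9%, a range that did not meet the germ-like one, while interstitial-like cells (21.5% to 31.2%) overlapped both. Leydig-like cells spread the most of the 7 classes (SD 4.88 points). This spread held a difference between its clusters, as cluster 9, with the steroidogenic genes, had 16.1% and cluster 6 had 23.2%.

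Depth moved with the share in some classes. The rank correlation between a cell's UMIs and its share was -0.58 over the 316 Leydig-like cells, where cluster 9 was also the deeper one (median 21399 UMIs against 13647), and -0.34 over the 852 Sertoli-like cells. Within the Leydig-like clusters it was -0.23 in cluster 6 and -0.18 in cluster 9. It was 0.13 in germ-like and -0.07 in interstitial-like cells, where clusters 1 and 3 differed in sign (-0.15 and 0.21). In perivascular-like cells it was -0.32, in peritubular myoid-like cells -0.29 and in coelomic epithelium-like cells -0.18. All cells came from the same library, and the part of depth in the class differences was not tested. Germ-like cells were the deepest class, with a median of 36104.5 UMIs and 10450 ribosomal protein UMIs per cell, against 8770 and 2400 in interstitial-like cells.

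**Figure D2:**
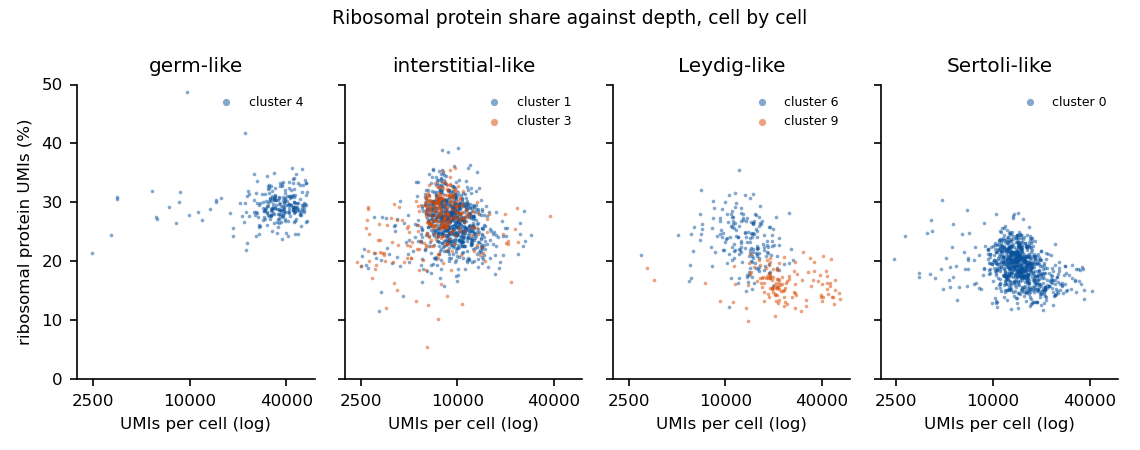
Ribosomal protein share of a cell's UMIs, in percent, against its total UMIs on a log axis, 1 point per cell, coloured by cluster, in 4 cell classes. In the Leydig-like panel the deeper cluster 9 lies below cluster 6, with summed shares of 16.1% and 23.2% (rank correlation with depth -0.58 over both), while the germ-like panel shows no fall with depth (0.13).

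The share also differed with the cell cycle genes in 6 of the 7 classes. Cells with at least 5000 UMIs were thinned to that number, which left out from 1 perivascular-like cell to 68 interstitial-like cells per class. Of the thinned cells, those at or below the lower quartile of the summed UMIs of 54 G2/M genes were taken as the low group. They were set beside those at or above the upper quartile of their class. In interstitial-like cells the median share was 28.7% in the low group and 24.0% in the high group, and in Sertoli-like cells it was 20.8% and 15.9%. Peritubular myoid-like (28.7% and 23.3%), perivascular-like (27.8% and 23.2%), coelomic epithelium-like (29.2% and 23.3%) and germ-like cells (30.5% and 28.3%) showed the same direction. In Leydig-like cells the groups held different clusters. Their low group was at 17.7%, with 56 of its 93 cells from cluster 9, and their high group at 23.3%, with 74 of its 82 cells from cluster 6. Within cluster 6 the low and high groups were at 22.67% and 22.69%, and within cluster 9 at 16.2% and 15.98%. The 2 interstitial-like clusters each kept the direction of their class, with 28.6% and 23.6% in cluster 1 and 29.1% and 24.2% in cluster 3. Before thinning the high groups were also deeper in 5 classes, with medians of 9993.5 against 8243 UMIs in interstitial-like, 18649 against 13069 UMIs in Sertoli-like and 15577 against 9511 UMIs in peritubular myoid-like cells. In germ-like cells the high group was shallower (34906 against 37282 UMIs) with the same direction of share, and the part of depth was not tested.

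The levels of most members ranged less than 2-fold between the classes. A UMI stands for 1 captured molecule, so levels in CPM, a gene's UMIs scaled to a total of 1000000, were not divided by transcript length. Whether transcripts of different members were captured equally well was not tested, and members with shared stretches may have lost reads. The order of members by level is therefore a description of the counts. Among the highest members were *Rpl13* (6289 CPM), *Rpl23* (5914), *Rps24* (5545) and *Rps27a* (5502), the last encoding a ubiquitin fusion. The lowest were *Rpl7l1* (123 CPM), *Rps27rt* (93.3), *Rpl39l* (69.3), *Rpl10l* (7.64) and *Rpl3l* (0.711). The level of *Rpl13* was 7302 CPM in germ-like, 7247 in interstitial-like, 5366 in Leydig-like and 4593 in Sertoli-like cells. Most members were highest in germ-like cells (61 of 85) and lowest in Leydig-like or Sertoli-like cells (75 of 85). Both counts were made for the members only, so the share of all genes with such a pattern is not known.

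A range of at least 2-fold between the highest and the lowest of the 7 classes was found for 18 of the 84 members with at least 100 UMIs, against 80.1% of the 12216 genes with at least 100 UMIs. These genes were not matched to the members in level, and counting error weighs more on genes with few UMIs. With at least 500 UMIs it was 17 of 83 members, against 75.2% of 9022 genes. Of the 18, *Rpl39l* and *Rpl10l* had nearly all of their UMIs in germ-like cells. Of the others, *Rplp1* had the widest range, with 7122 CPM in germ-like and 2452 in Sertoli-like cells (2.90-fold), followed by *Rpl22l1* (2158 and 749, 2.88-fold) and *Rpl10* (2732 in interstitial-like and 1002 in germ-like cells, 2.73-fold). Without the filter on outlier cells, erythroid-like (285) and immune-like cells entered the comparison, and the count was 84 of 84, against 99.7% of all genes. When each member was taken as a share of the ribosomal protein UMIs of its class, which removes the difference in the total, the median range over the 82 members seen in every class was 1.30-fold, beside 1.69-fold for CPM. On that scale *Rps24* varied least (1.08-fold), and *Rpl10* (3.17-fold), *Rpl36al* (2.26-fold) and *Rps29* (2.06-fold) had ranges of at least 2-fold.

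Single classes were then set against all other kept cells, with a 2-fold difference in CPM as the limit. In germ-like cells 2 of 84 members were at least 2-fold higher, *Rpl39l* and *Rpl10l*, against 15.1% of all genes. Without the filter on outlier cells it was 7 members, against 16.9% of all genes. With the filter, 1 member was at least 2-fold lower, *Rpl10*, against 36.9%. No member passed the limit upward in the other classes. All genes did so at 6.54% in interstitial-like, 12.0% in Sertoli-like, 5.41% in peritubular myoid-like, 6.70% in Leydig-like, 5.14% in perivascular-like and 5.94% in coelomic epithelium-like cells. Downward, *Rpl39l* and *Rpl10l* passed in each of these 6 classes, since the germ-like cells stood on the other side, and *Rpl22l1* also passed in Sertoli-like cells. The share of all genes that passed downward was 15.6% in interstitial-like, 18.8% in Sertoli-like, 16.6% in peritubular myoid-like, 24.1% in Leydig-like, 15.7% in perivascular-like and 15.9% in coelomic epithelium-like cells.

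As a group the members shifted together. Their median log2 ratio of CPM in germ-like to other cells was 0.41, with 71 of 84 above 0, beside a median of -0.42 over all genes. In interstitial-like cells the median was 0.16 (all genes -0.08), in Sertoli-like cells -0.43 (all genes -0.05) with 81 of 84 below 0, and in Leydig-like cells -0.37, close to the -0.34 of all genes. Counts above or below 0 were made for the members only.

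The mix of members differed as well. Within ribosomal protein UMIs, 16 members were at least 1.25-fold higher and 16 at most 0.8-fold in germ-like against other cells, while the other classes had 0 to 4 members up and 2 to 9 down. Those down counts include *Rpl10l* and *Rpl39l* in each class, since germ-like cells stood on the other side. Counts on this scale were made for the members only. Over all genes, the 2-fold limit in CPM was also passed most often in germ-like cells (15.1% up and 36.9% down). After *Rpl10l* and *Rpl39l*, the stalk gene *Rplp1* had the largest gain (log2 ratio of shares 0.59, 2.41% of ribosomal protein UMIs against 1.60%), and *Rpl14* (0.58) and *Rplp2* (0.55), the other small stalk protein, came next. The third stalk gene, *Rplp0*, differed in the other direction (-0.60), with 3403 CPM in germ-like and 3976 CPM in other cells. At the low end stood *Rpl10* (-1.43) and *Rps29* (-1.01), a zinc-binding protein of the small subunit, at 1619 CPM against 2524 CPM, with *Rps19* (-0.83), whose human gene is mutated in Diamond-Blackfan anaemia, and *Rpl39* (-0.80) above them. The 3 stalk genes together made up 4.90% of ribosomal protein UMIs in germ-like and 3.60% in Sertoli-like cells, and the small subunit's genes 42.7% in germ-like and up to 45.2% in coelomic epithelium-like cells.

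**Figure D3:**
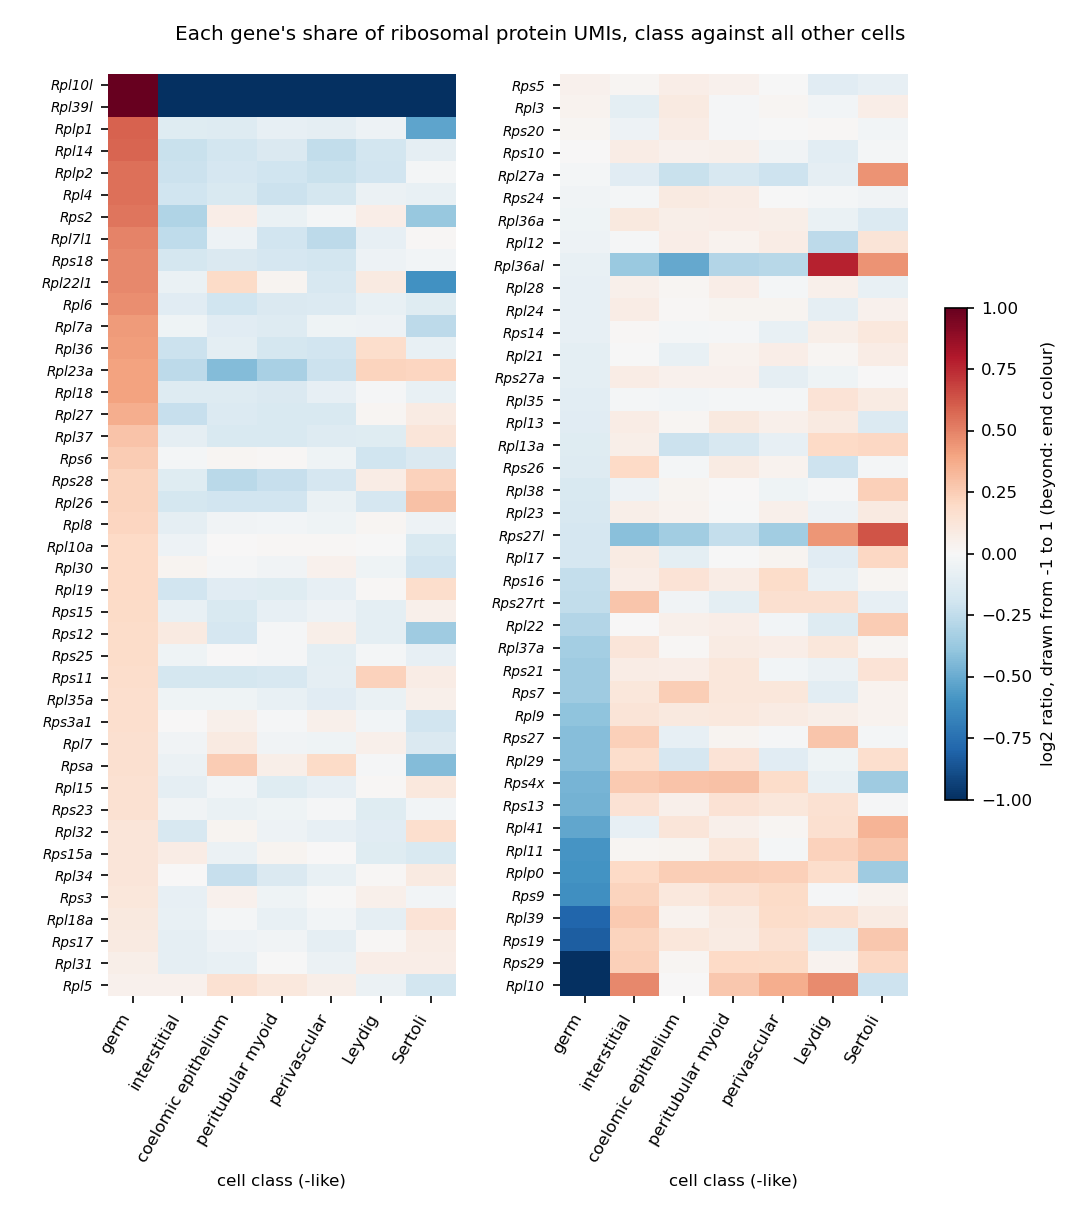
Heat map of each member's share of ribosomal protein UMIs in a class against all other kept cells, as a log2 ratio, for members with at least 100 UMIs (rows, ordered by the germ-like value) and 7 cell classes (columns). Red is higher and blue lower, and values beyond -1 or 1 take the end colour; the germ-like column runs from 9.12 for Rpl10l to -1.43 for Rpl10, and the other columns are paler apart from Rpl10l and Rpl39l.

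In the other classes the mix differed through a few members. Sertoli-like cells had relatively more *Rps27l* (0.63), a p53-responsive paralogue of *Rps27*, and *Rpl27a* (0.45), and relatively less *Rpl22l1* (-0.61). Leydig-like cells had relatively more *Rpl36al* (0.77) and *Rpl10* (0.47), interstitial-like cells *Rpl10* (0.48) and *Rps27rt* (0.28), and perivascular-like cells *Rpl10* (0.36) and *Rplp0* (0.24). *Rps4x*, an X-linked protein of the small subunit, came first in peritubular myoid-like (0.30) and in coelomic epithelium-like cells (0.29), where *Rpl10* and *Rpsa*, also known as the laminin receptor, came second. The other cells in these ratios include the germ-like cells, where *Rpl10* gave only 0.339% of ribosomal protein UMIs. This raises the ratio of *Rpl10* in the other classes, and ratios without germ-like cells were not computed. *Rps27rt* shares its coding sequence with *Rps27*, so its counts are uncertain. The lowest members in these 6 classes were *Rpl10l* and *Rpl39l*, and the next lowest were *Rps27l* in interstitial-like (-0.41) and perivascular-like (-0.35), *Rpl23a* in peritubular myoid-like (-0.32), *Rpl36al* in coelomic epithelium-like (-0.51) and *Rpl12* in Leydig-like cells (-0.26).

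*Rpl39l*, the paralogue of a small protein that lines the exit tunnel of the ribosome, had the highest level among the members found mostly in germ-like cells. It had 3715 UMIs there, or 419.6 CPM (interval 406 to 433), and 86 UMIs in the other 3574 cells. Its level was 2.02 CPM in Sertoli-like (26 UMIs), 1.86 in interstitial-like (19), 1.56 in Leydig-like (9) and 1.29 in peritubular myoid-like cells (9). It had 4 UMIs in coelomic epithelium-like cells and 0 in perivascular-like cells. There 3 counts would be 1.72 CPM, and the exact interval for 0 UMIs reaches 2.12 CPM. Germ-like cells thus held 97.7% of its UMIs and 16.2% of all UMIs, a ratio of levels of 224 (181 to 281) to the other cells. Among all 22631 features ranked by the germ-like to other ratio with 5 CPM added, *Rpl39l* was at rank 6, *Rpl10l* at rank 80, and the next member, *Rplp1*, at rank 1562.

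Nearly every germ-like cell had the transcript. A UMI of *Rpl39l* was seen in 249 of 252 germ-like cells, with a median of 13 and a maximum of 51 per cell and the 10th and 90th percentiles of cells at 120.3 and 725 CPM, and in 81.5% (76.0 to 86.1) of the 248 cells that could be thinned to 5000 UMIs. At that depth it was seen in 0.714% of 840 Sertoli-like and 0.770% of 1039 interstitial-like cells. Over all depths 65 of the 3574 other cells had a UMI and 10 had at least 2. In Sertoli-like cells the level was 0.481% of the germ-like level while the 10 germ markers together stood at 1.10% of theirs, and in interstitial-like cells 0.442% beside 0.571%, while *Dppa3*, the leading gene of the germ-like cells, stood at 0.473% and 0.162% of its own. *Rpl39l* thus lay between these measures of germ cell RNA, and the part of free RNA in these UMIs was not tested. Immune-like cells differed, with 12 UMIs in 5 of 35 cells (22.0 CPM, 5.23% of the germ-like level) beside germ markers at 0.381%, in few cells.

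*Rpl39* itself was lower in germ-like cells, at 2159 CPM against 2897 CPM in the others, with 2298 to 3550.5 CPM in the other 6 classes. The paralogue therefore made up 16.3% (15.8 to 16.8) of the UMIs of the pair in germ-like cells and at most 0.0877% in the other 6 classes, with 0.700% in immune-like cells. Both genes together gave 2579 CPM in germ-like cells, a value within the range of the other classes (2299.6 to 3552 CPM).

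*Rpl10l*, an intronless autosomal copy of *Rpl10* whose protein sits at the same place in the large subunit, followed the same pattern at a lower level. It had 416 UMIs in germ-like cells (47.0 CPM, 42.6 to 51.7) and 3 elsewhere, 2 in Sertoli-like and 1 in interstitial-like cells, a ratio of 720 with an interval from 245 to 3505. A UMI was seen in 69.0% of germ-like cells at full depth and in 20.2% at 5000 UMIs. *Rpl10* was at 1002 CPM in germ-like cells and between 1337 CPM (Sertoli-like) and 2732 CPM (interstitial-like) in the other classes, so *Rpl10l* made up 4.48% of the pair and the sum of both, 1049 CPM, was the lowest of all 7 classes. The end of *Rpl10* is shared with *Rpl10-ps3* and that of *Rpl10l* with no other transcript, so the counts of *Rpl10* may miss reads. The share of *Rpl10l* may then be too high and the sum too low. *Rpl3l*, known as the form of striated muscle, had 39 UMIs in all, 35 of them in germ-like cells (3.95 CPM) and 4 in Leydig-like cells of cluster 9.

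**Figure D4:**
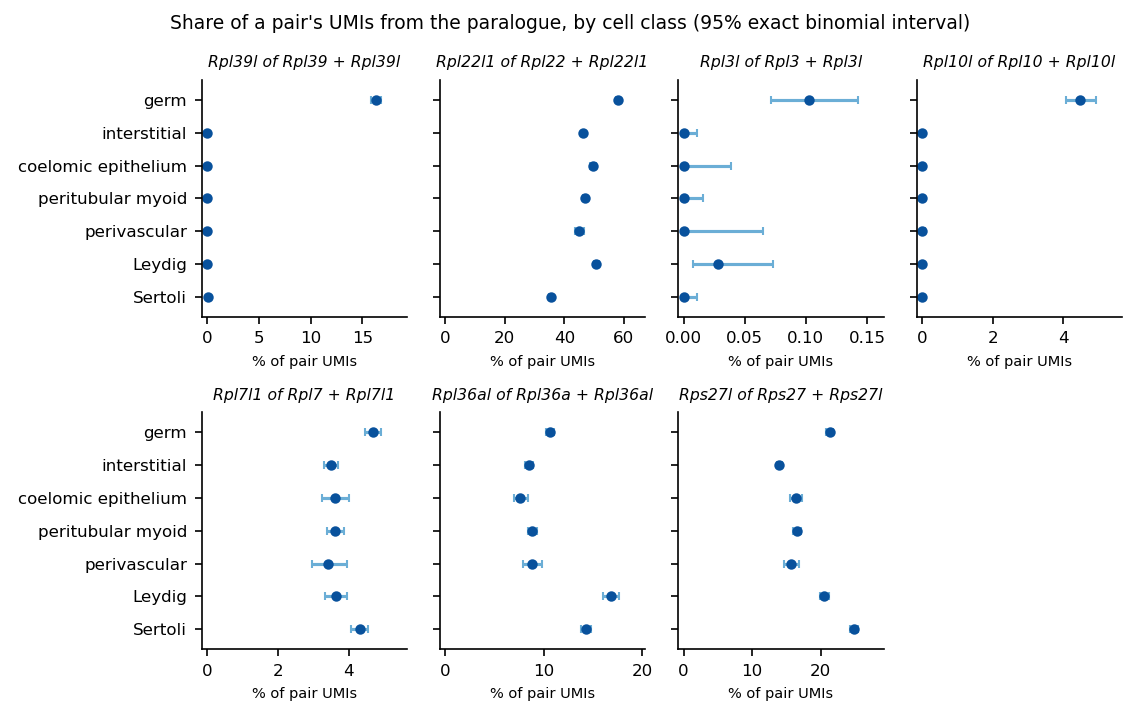
Percent of the UMIs of a pair that came from the paralogue, in 7 cell classes, with exact 95% binomial intervals as bars; each panel has its own axis starting at 0. Rpl39l reaches 16.3% and Rpl10l 4.48% in germ-like cells and both lie near 0 elsewhere, Rpl22l1 runs from 35.4% to 57.8%, and Rpl36al is highest in Leydig-like (16.9%) and Rps27l in Sertoli-like cells (24.9%).

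The other pairs were used in every class, in different proportions. *Rpl22l1* gave 57.8% (57.3 to 58.4) of the UMIs of *Rpl22* and *Rpl22l1* in germ-like cells, 50.8% in Leydig-like, 46.4% in interstitial-like and 35.4% (34.8 to 35.9) in Sertoli-like cells, where its level was 749 CPM beside 1368 CPM of *Rpl22*. *Rpl36al* gave 16.9% of its pair in Leydig-like and 14.3% in Sertoli-like cells and 7.65% to 10.6% in the other 5 classes, and within Leydig-like cells 22.2% in cluster 9 and 12.4% in cluster 6. *Rps27l* gave 24.9% of its pair in Sertoli-like, 21.3% in germ-like and 20.5% in Leydig-like cells, and 14.0% in interstitial-like cells. Its level was 521 CPM in Sertoli-like, 530 in germ-like, 501 in Leydig-like and 413 in interstitial-like cells. *Rps27* was at 1575, 1954, 1936 and 2545 CPM in the same order, so the parent differed more than the paralogue. The range for *Rpl7l1*, a distant relative of *Rpl7*, was narrow, from 3.43% in perivascular-like to 4.69% in germ-like cells. For *Rpl36al*, 69.1% of the 90-base stretches at its end also occurred in another annotated gene of the matrix, and for *Rpl36a* 61.7%. The counts of both may therefore miss reads. *Rps27* shared 98.4% of its stretches with *Rps27rt*, and *Rps27l* shared none with another gene of the matrix. The share of *Rps27l* in its pair may then be too high. *Rps4l* was not analysed here.

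Paralogues also differed among the germ-like cells. At a finer clustering resolution, a first group of 153 of these cells was led by *Lefty1*, *Ckb* and *Epcam*, the last an epithelial adhesion gene. The G2/M genes *Hmgb2* and *Mki67* were also among its leading genes. A second group of 99 cells was led by *Hbb-y*, *Rrad*, *Nxf2* and *Gtsf1*, with *Tex101* and *Piwil4*, genes known from prospermatogonia. *Hbb-y* is an embryonic hemoglobin, as is *Hba-x*, another leading gene of the second group. Hemoglobin genes took 0.0643% of the UMIs of the second group against 0.0184% in the first. *Rpl39l* stood at 292 CPM in the first group and 586 CPM in the second, and its share of the pair at 11.5% and 22.2%. *Rpl10l* followed at 27.7 and 72.2 CPM, with *Rpl10* at 1196 and 748 CPM, and *Rpl22l1* at 50.2% and 67.1% of its pair. *Rps27l* went the other way, with 703 CPM (27.9% of its pair) in the first group and 303 CPM (12.4%) in the second. The share of all members hardly differed, at 29.3% and 29.9%, and the median depths were 33857 and 39304 UMIs.

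Single germ-like cells were compared as well. In the 230 germ-like cells with at least 20000 UMIs, each thinned to that number, the rank correlation of *Rpl39l* was 0.53 with *Rpl22l1*, -0.54 with *Rpl10* and -0.44 with *Rpl22*, and 0.10 with the total of the members. The 65 cells with at least 12 *Rpl39l* UMIs had means of 15.5 *Rpl10* and 51.8 *Rpl22l1* UMIs, and the 66 cells with at most 4 had 26.2 and 33.3. These cells share a library and a depth, and the values are a description.

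The 4 members on chromosome X were *Rpl10*, *Rpl39*, *Rps4x* and *Rpl36a*, and 80 of the 84 members compared lay on autosomes. In germ-like against other cells the log2 ratios of CPM were -1.06 for *Rpl10*, -0.42 for *Rpl39*, -0.10 for *Rps4x* and 0.33 for *Rpl36a*, a median of -0.26, against a median of 0.45 for the 80 autosomal members. Over genes that were not members the medians were -0.73 on chromosome X (455 genes) and -0.43 on autosomes (11651 genes). Autosomal members were found below 0 as well, *Rps29* at -0.64 and *Rps19* at -0.45 among them. In Sertoli-like cells the X-linked members were also lower, with medians of -0.61 for the 4 X-linked and -0.42 for the autosomal members. The order was turned in interstitial-like (0.45 and 0.15), peritubular myoid-like (0.30 and 0.10) and perivascular-like cells (0.26 and 0.05). It was also turned, by less, in coelomic epithelium-like (0.17 and 0.09) and Leydig-like cells (-0.29 and -0.37).

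**Figure D5:**
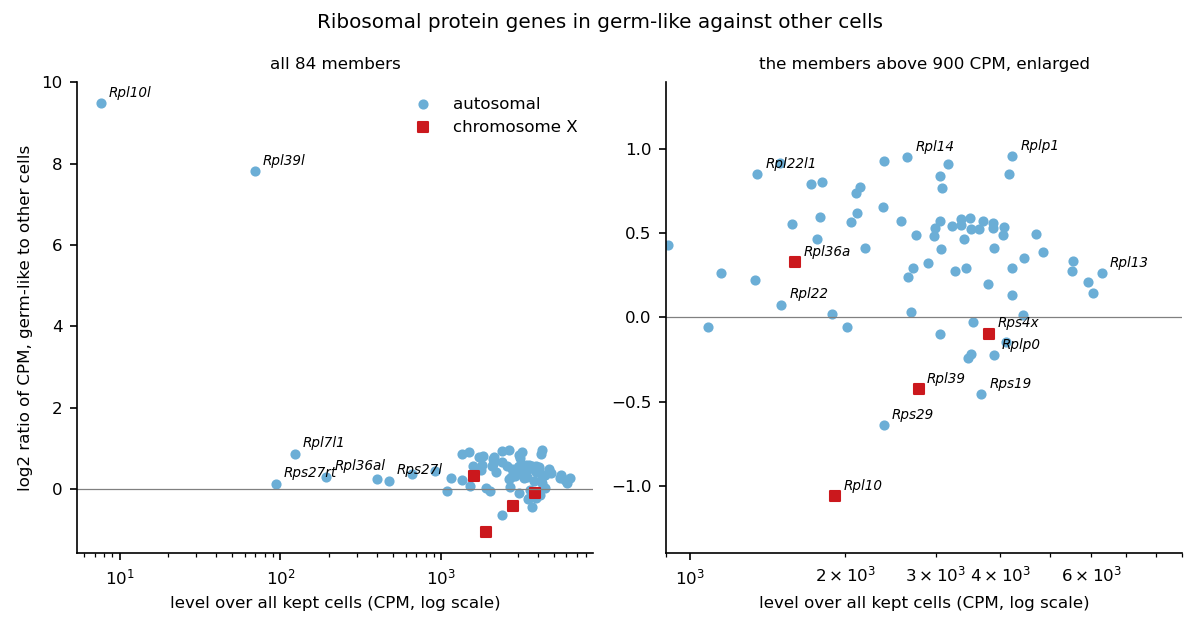
Log2 ratio of CPM in germ-like to all other kept cells (vertical axis) against the level over all kept cells in CPM (log axis) for 84 members, 1 point per gene, with the members above 900 CPM enlarged on the right. Red squares are the 4 members on chromosome X, from 0.33 for Rpl36a down to -1.06 for Rpl10, and Rpl10l and Rpl39l stand apart at the top left.

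*Fau* and *Rack1*, ribosomal proteins whose symbols do not start with Rp, did not pass the 2-fold limit between germ-like and other cells. *Fau*, which encodes a small-subunit protein fused to a ubiquitin-like protein, was at 3179.5 CPM in germ-like and 2919 CPM in other cells. *Rack1*, a scaffold on the small subunit, was at 2594 and 2194 CPM.

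Genes that build ribosomes had a median log2 ratio of 1.02 between germ-like and other cells, beside 0.41 for the members. All 26 listed ribosome biogenesis genes were above the other cells, 14 of them at least 2-fold (against 15.1% of all genes), and together they gave 0.566% of UMIs against 0.235%. *Rrp12*, needed for export and maturation of the subunits, had the largest difference (53.9 CPM and 5.05 CPM, log2 ratio 3.42), and *Dkc1*, a pseudouridine synthase, the smallest (92.9 and 87.7 CPM). Of 77 mitochondrial ribosomal protein genes with at least 100 UMIs, 19 were at least 2-fold higher (15.1% of all genes) and 2 at least 2-fold lower (36.9% of all genes) in germ-like cells, from *Mrpl23* (log2 ratio 2.03) to *Mrps36* (-1.05), and together they gave 1.03% of UMIs against 0.764%.

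Translation factors and other TOP genes were mixed, and their counts stand beside 15.1% of all genes at least 2-fold higher and 36.9% at least 2-fold lower in germ-like cells. Among 6 elongation factors tested, 1 was at least 2-fold higher in germ-like cells, *Eif5a* at 1092 CPM against 495 CPM, while *Eef1a1*, which delivers aminoacyl-tRNA, had 7637 and 7440 CPM. Among 28 initiation factors 4 were at least 2-fold higher and 2 lower, so that the upward count was close to the share of all genes, from *Eif3g* (478 and 152 CPM) to *Eif4a2* (124 and 317 CPM). Of 7 other genes with TOP mRNAs, *Pabpc1*, the poly(A)-binding protein, had the highest ratio (797 and 402 CPM), 0 were at least 2-fold higher and 1 was at least 2-fold lower, *Tpt1*, a growth-related protein, at 2687 CPM in germ-like and 9571 CPM in other cells.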

How the data were processed

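The authors deposited raw UMI counts for each gene in each barcode, from Cell Ranger on mm10 with a YFP sequence. The matrix header names version 3.1.0, the submitters' processing notes 3.0.2 and 3.1.0, and the methods another version. Of 5421 barcodes, 372 with fewer than 200 genes, 204 called as doublets (rate set to 4.04%, simulated doublets and nearest neighbours in scikit-learn 1.9.0) and 1019 lying more than 3 median absolute deviations from the median in log genes or log UMIs, or above it in mitochondrial share, were removed. Cells were clustered with Seurat 5.3.0 (SCTransform 0.4.2, 3000 variable genes less 18 members, 30 components, resolution 0.8, cell cycle and mitochondrial share regressed out). Unlike the study, no filter used the ribosomal share, because it is the readout. Counts were summed per class in Python 3.11.15. Positions and coding sequences came from GENCODE on GRCm38. On simulated counts for 10115 genes, all 200 changed genes were called and no unchanged one. There the changes were larger than the 2-fold limit, genes of low level were not changed, and cells of a group differed by counting only. The simulation therefore checked the calculation and not the calls in these data. UMIs of 1 pooled library are not replicates. The named genes were both genes of each pair, the 5 highest and lowest members, the 2 highest and lowest within each class and the extreme genes of each list, with some added after their values were seen (*Rpl14*, *Rplp2*, *Rps19*, *Rpsa*). Some genes are not reported here. Members and lists were chosen with earlier results of these data known.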

Additional observations from a re-analysis of the deposited data

Results flagged for a closer look

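Values outside the cells compared were looked at because they lay above the limit that a count of 0 allows. Members took 18.0% of the UMIs of the 1019 barcodes removed as outliers, which gave 20.4% of their UMIs to hemoglobin genes. The median depth was 2132 UMIs, but 69 barcodes deeper than every kept cell held 4926345 of the 10095977 UMIs. Members took 26.4% in these 69, 20.3% in 526 barcodes shallower than every kept cell and 15.2% in 233 over the mitochondrial limit. These groups overlap and do not cover all 1019. Hemoglobin genes took 0.0184%, 1.71% and 0.316% of their UMIs, so the barcodes rich in hemoglobin lie mostly outside them. In the 204 barcodes removed as doublets members took 22.6%. In the 372 barcodes under 200 genes the share was 1.02%, where hemoglobin genes took 46.8% and mitochondrial genes 49.2% of the UMIs.

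Pseudogene-labelled features, which are no members, also had UMIs. *Rpl10-ps3* held 3.85% of the UMIs of *Rpl10* and itself, *Rpl36a-ps1* 2.95% of its pair, *Rpl9-ps6* 2.75%, *Rps18-ps5* 0.680% and *Rpl9-ps1* 0.00309%. All 6 such features together gave 0.0254% of the UMIs of the kept cells, and *Rpl10-ps3* was at 39.2 CPM in germ-like and 107 CPM in interstitial-like cells.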

How the results depend on the processing

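The share of UMIs from ribosomal protein genes, 29.5% in germ-like, 26.5% in interstitial-like, 19.3% in Leydig-like and 18.9% in Sertoli-like cells, moved beyond its counting interval under most alternatives. Without mitochondrial and hemoglobin genes it was 32.5%, 28.3%, 21.7% and 21.4% in this order. With suffixes of at most 1 letter it was 28.7%, 25.9%, 18.8% and 18.5%, as means over cells 29.5%, 26.6%, 20.5% and 19.2%, with doublets kept 29.3%, 26.4%, 17.8% and 19.1%, and without the outlier filter 29.5%, 25.7%, 18.1% and 18.9%. With these genes among the clustering genes it was 26.5% in interstitial-like, 19.1% in Leydig-like and 18.97% in Sertoli-like cells. At resolution 1.2 it was 26.8% in interstitial-like and 17.8% in Leydig-like cells, and with the outlier filter also on this share 17.8% in Leydig-like cells. With at least 5000 UMIs per cell it was 26.6% in interstitial-like cells. Germ-like cells were highest of these 4 under each setting, and Leydig-like cells lay below Sertoli-like cells with doublets kept, without the outlier filter, at resolution 1.2 and with the filter on this share. The Leydig-like class was not the same set of cells there. It had 316 cells in the main setting, 239 with doublets kept and 389 without the outlier filter. At resolution 1.2 and with the filter on this share it had 227.

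Members with a 2-fold range between classes numbered 18, and 84 without the outlier filter and 69 at a fold of 1.5, where 99.7% and 95.3% of all genes passed. Members at least 2-fold higher in germ-like cells numbered 2 of 84, against 15.1% of all genes. They numbered 7 without the outlier filter (16.9% of all genes) and 1 with at least 500 UMIs (13.3%). At a fold of 1.5 it was 20 of 84 members, close to the 23.5% of all genes. The *Rpl39l* level in germ-like cells, 419.6 CPM, was 403 with doublets kept, 404 as a mean over cells and 462 without mitochondrial and hemoglobin genes. Germ-like cells with a UMI, at 5000 UMIs 81.5% for *Rpl39l*, 20.2% for *Rpl10l* and 1.61% for *Rpl3l*, were 64.9% and 11.6% at 3000 UMIs for the first 2, and 98.8%, 69.0% and 11.9% without thinning. No paired analysis was possible because there was 1 library. Depth limits the rare paralogues: the exact interval for 0 UMIs in perivascular-like cells reaches 2.12 CPM. The cause of these moves was not tested.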
